A study of Mus musculus with 10 samples.

Results

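The genes described here are 10 grouped around the supply and use of cytosolic acetyl-CoA in the liver, taken by name from the 55401 genes of the deposited table. They cover citrate export (Slc25a1) and cleavage (Acly), acetate activation (Acss2, Acss1, Acss3), the making and removal of malonyl-CoA (Acaca, Acacb, Mid1ip1, Mlycd) and NADPH supply (Me1). Of the acetate group, Acss1 and Acss3 encode mitochondrial enzymes and stand beside the cytosolic route. All 10 names were found, each on 1 row. RNA came from the livers of 10 mice, 5 of genotype NIKflox and 5 of genotype NIKhKO. NIK stands for NF-kB inducing kinase, the product of Map3k14. The meaning of hKO is not written out in the labels, although the series title speaks of hepatic NIK, and no source used here says what drives the deletion or which exons it removes. Every mouse of either genotype had received a Lieber-DeCarli liquid diet with 5% ethanol over 4 weeks, so the comparison is between genotypes under ethanol. Age and sex are not given in the labels. The study title links NIK loss to PI3K, AKT and ACLY, and the question asked here is whether the RNA of Acly and of the enzymes around it differs between the genotypes.

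Fatty acid synthesis takes place in the cytosol, while acetyl-CoA from pyruvate and fat is made inside mitochondria, whose inner membrane it cannot cross. Citrate carries the acetyl group out through the citrate carrier, and ATP citrate lyase splits it back into acetyl-CoA and oxaloacetate. A second source is acetate, which the liver makes from ethanol through acetaldehyde and which acetyl-CoA synthetases activate. Acetyl-CoA carboxylase then makes malonyl-CoA, which is the building block of fatty acids and an inhibitor of carnitine palmitoyltransferase, the gate of fatty acid oxidation.

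Hepatocyte transcripts dominated every library, with 7 hepatocyte markers (Alb and Ttr among them) summing to 37913 to 52735 FPKM in NIKflox and 41600 to 48858 FPKM in NIKhKO. FPKM counts fragments per unit of transcript length and of library size. Total estimated counts ran from 47161869 to 65052525 per library. Map3k14 read 0.483 to 0.899 FPKM in NIKflox and 0.347 to 0.443 FPKM in NIKhKO, without overlap. Its mean over the 10 libraries lay under 0.5 FPKM, the level from which genes were tested, so it was not tested. Among all genes tested, 1.59% were lower in NIKhKO without overlap. The level of markers of other tissues and cell types varied between libraries. No marker list had a gene called by edgeR, which called 0.0236% of all genes tested. Of 8 heart muscle markers, the summed level was 7.62 FPKM in NIKflox 2 and 34.7 FPKM in NIKflox 4, against 0.437 to 1.20 FPKM in the other 8 libraries, and 6 of the 8 markers were at 0 in some library. The sum of 8 adipocyte markers was 27.1 FPKM in NIKflox 2 and 2.64 to 4.95 FPKM in the other 9, and 7 of the 8 were at 0 in some library. The sum of 5 skeletal muscle markers was 12.0 FPKM in NIKflox 2 and 0.108 to 3.18 FPKM in the other 9, with 4 of the 5 at 0 in some library. The sum of 6 stellate and matrix markers was 34.6 to 74.6 FPKM in NIKflox, highest in NIKflox 2, and 30.2 to 42.0 FPKM in NIKhKO. The sum of 5 cholangiocyte markers was 26.1 to 46.2 FPKM in NIKflox and 15.8 to 26.9 FPKM in NIKhKO. Of these, Krt19 (0.987 to 1.16 against 0.308 to 0.832 FPKM) and Spp1 (23.54 to 42.7 against 14.1 to 23.50 FPKM) did not overlap. Krt7, Epcam and Sox9 overlapped. Separation in this direction held for 1.59% of all genes tested. The sum of 4 B cell markers was 1.298 to 3.04 FPKM in NIKflox and 1.88 to 6.89 FPKM in NIKhKO. None of the cholangiocyte or B cell markers was at 0 in any library. The part of these transcripts in the values below was not tested beyond leaving out libraries. In bulk tissue, fewer cells of a type and less RNA per cell cannot be told apart. Nothing in the labels ties a library to a litter, cage or day, and each p-value therefore speaks only of the variation among these 10 samples, which may be technical in part.

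None of the 10 genes passed the test of genotype over all genes. With edgeR's quasi-likelihood test and Benjamini-Hochberg adjustment over 12731 genes, 0 of 10 were called at an adjusted p below 0.05, against a background of 0.0236% of all genes tested (0.0157% called higher in NIKhKO and 0.00785% called lower). At an unadjusted p below 0.05 there were 2, Acss3 and Acaca, against 9.99% of all genes. DESeq2 called 1, Acss3, where it called 1.66% of the 12456 genes to which it gave an adjusted p. limma called 0 members and 0% of all genes. Acss1 lay under the level filter (a mean of 0.5 FPKM) and was tested because it is a member, while the other 9 passed it. Log2 fold changes, given as NIKhKO minus NIKflox, were positive for 4 genes and negative for 6, with a median of −0.022, and the median of all genes tested was −0.0098.

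**Figure D1:**
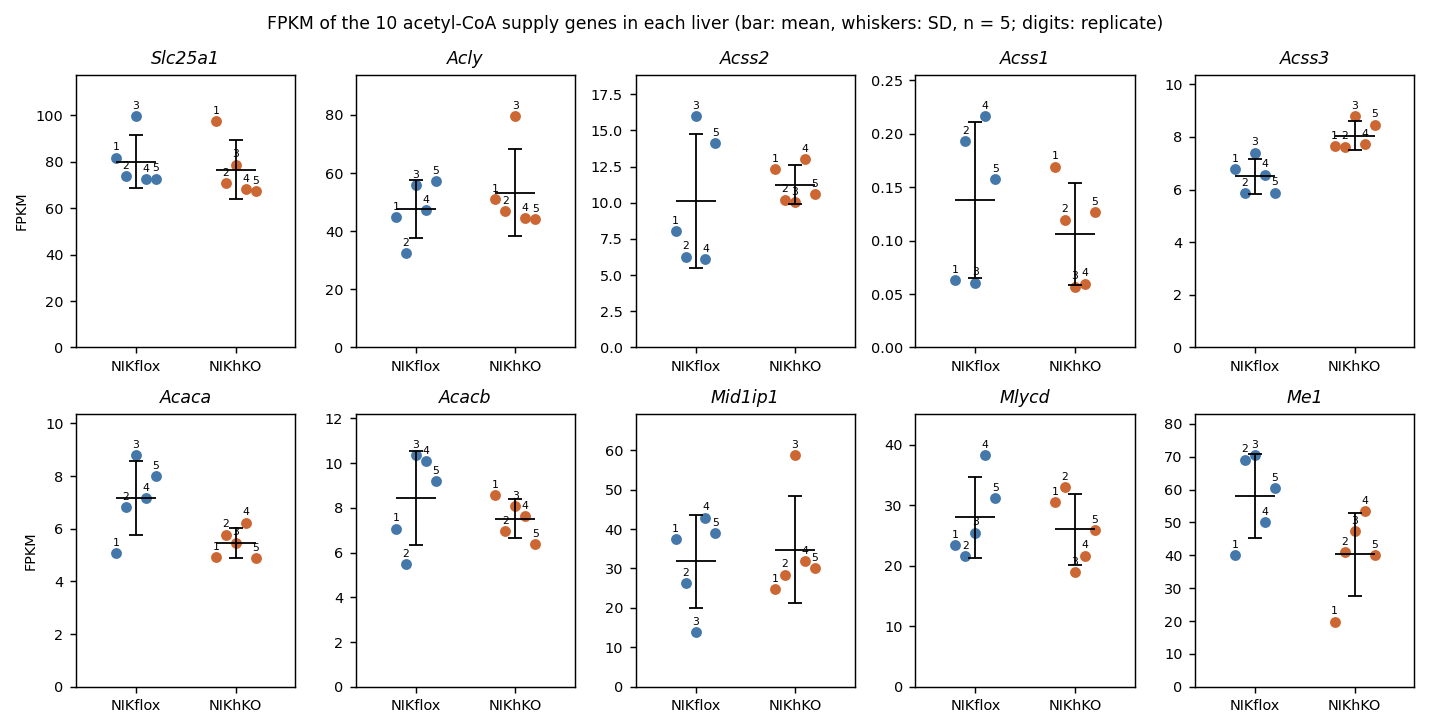
FPKM of each of the 10 genes (1 panel per gene, vertical axis FPKM from 0) in the 5 NIKflox and 5 NIKhKO livers, with the mean as a bar, the SD as whiskers and the replicate number beside each point. The genotypes overlap in every panel other than that of Acss3, where all NIKhKO livers lie above all NIKflox livers.

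Acly, the cytosolic enzyme that cleaves citrate, had similar levels in most livers of either genotype. The 5 NIKflox livers read 44.8, 32.5, 55.9, 47.3 and 57.3 FPKM. The 5 NIKhKO livers read 51.0, 46.9, 79.6, 44.5 and 44.0 FPKM. NIKflox 2 was the lowest and NIKhKO 3 the highest, and 4 of the 5 NIKhKO livers fell inside the NIKflox range. The NIKhKO mean was 112% of the NIKflox mean, with a log2 fold change of 0.24 (SE 0.20). An approximate 95% interval, from the SE and the normal distribution and so somewhat narrow for 5 livers a group, ran from 0.894-fold to 1.55-fold (edgeR adjusted p = 0.77). Without NIKhKO 3 the log2 fold change was 0.019. Without NIKflox 2, the liver with the most adipocyte transcripts and some heart transcripts, it was 0.13. Without NIKflox 2 and 4, the livers with heart transcripts, it was 0.075. The part of adipocyte, heart or other such transcripts in these values was not tested. Acly (ENSMUSG00000020917) lies on the minus strand of chromosome 11 at 100476353 to 100528000 (GRCm38).

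Over the livers Fasn, which encodes fatty acid synthase, varied most like Acly of 9380 genes ranked, and Acacb most like it of the members, as given further on. The 250 bases before the RefSeq starts of these 3 genes are therefore shown (GRCm38.p6, on the strand of the gene, 5′ to 3′). The windows are chr11:100528001-100528250 (minus strand) for Acly, chr11:120824548-120824797 (minus strand) for Fasn and chr5:114165268-114165517 (plus strand) for Acacb, the last inside the span that the table gives for that gene. Capitals mark GC boxes (GGGCGG) and CCAAT boxes (CCAAT), on either strand.
Acly: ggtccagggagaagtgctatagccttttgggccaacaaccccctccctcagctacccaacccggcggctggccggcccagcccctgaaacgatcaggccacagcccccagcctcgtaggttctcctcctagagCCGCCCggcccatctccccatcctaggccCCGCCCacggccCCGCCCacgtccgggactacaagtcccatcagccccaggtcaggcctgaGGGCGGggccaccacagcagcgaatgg
Fasn: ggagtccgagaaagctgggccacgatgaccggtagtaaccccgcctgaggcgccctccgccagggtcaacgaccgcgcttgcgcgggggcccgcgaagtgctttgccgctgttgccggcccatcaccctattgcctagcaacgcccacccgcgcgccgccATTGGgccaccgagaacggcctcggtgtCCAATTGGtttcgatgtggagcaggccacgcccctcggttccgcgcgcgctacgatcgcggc
Acacb: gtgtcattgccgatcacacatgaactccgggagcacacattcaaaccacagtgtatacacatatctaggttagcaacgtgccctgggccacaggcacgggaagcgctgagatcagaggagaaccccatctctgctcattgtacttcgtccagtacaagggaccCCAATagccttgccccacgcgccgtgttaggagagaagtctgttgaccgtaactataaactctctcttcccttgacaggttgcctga
The Acly window held 4 GC boxes and 0 CCAAT boxes, that of Fasn 3 CCAAT boxes, of which a pair on opposite strands shares 2 bases, and 0 GC boxes, and that of Acacb 1 CCAAT box. Among 32851 RefSeq windows of this length, 32.7% held a GC box and 33.8% a CCAAT box. A sterol regulatory element (TCACNCCAC, 1.05% of windows) and an E-box (CACGTG, 6.02%) were searched on both strands too, and these letters were not in the 3 windows shown. Of the 10 members 9 had a window. Slc25a1, with 1 E-box, was the member with such a match. A GC box was found in a window of 6 members and a CCAAT box in a window of 5, of which Me1 had a pair of windows. Matches describe letters and not bound sites.

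Slc25a1, the mitochondrial citrate carrier that feeds Acly, was the most abundant of the 10 transcripts per length. NIKflox livers read 81.8, 73.9, 99.6, 72.4 and 72.8 FPKM, and NIKhKO livers 97.6, 71.0, 78.8, 68.3 and 67.5 FPKM. One high liver stood in each genotype, NIKflox 3 and NIKhKO 1, and the remaining livers lay close together. The genotype difference was smaller than this spread. The means were 80.1 ± 11.6 and 76.6 ± 12.6 FPKM (SD, n = 5 each). The edgeR log2 fold change, from scaled counts and not from these means, was −0.00088 (SE 0.13). Its interval ran from 0.837-fold to 1.19-fold, and its sign turned with scaling, to 0.0062 with RLE size factors. Slc25a1 (ENSMUSG00000003528) is a short gene on the minus strand of chromosome 16, from 17925223 to 17928219.

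The acetate route is opened by Acss2, the acetyl-CoA synthetase of cytosol and nucleus. Its NIKflox livers fell apart, at 8.04, 6.28, 16.0, 6.12 and 14.1 FPKM, while the NIKhKO livers stood together at 12.3, 10.2, 10.1, 13.0 and 10.6 FPKM. All 5 NIKhKO values lay between the 3 low and the 2 high NIKflox livers. The coefficient of variation was 45.7% in NIKflox and 11.9% in NIKhKO, and this difference in spread was not tested. The log2 fold change was 0.22 (SE 0.26, edgeR adjusted p = 0.85). With 1 library left out it ran from 0.077 (without NIKflox 4) to 0.44 (without NIKflox 3), and it was 0.090 without NIKflox 2. It was −0.12 without NIKflox 2 and 4, both low for Acss2, which are also the livers with heart transcripts, and the part of those transcripts in it was not tested. Acss2 (ENSMUSG00000027605) lies on chromosome 2 at 155517948 to 155576980, plus strand. Its exons in GENCODE M21, where it ends at 155585724, overlap exons of Gss on the opposite strand (14.8 FPKM). The overlap came to 591 bases summed over the distinct Gss exons, so a base in several exons counts more than once. How much of it lies inside the deposited span was not examined. No source used here says whether reads were counted by strand, so reads there may come from either gene.

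Acss3, a mitochondrial short-chain acyl-CoA synthetase with activity on propionate, was the member whose genotypes did not overlap. NIKflox livers read 6.77, 5.86, 7.40, 6.56 and 5.88 FPKM. NIKhKO livers read 7.64, 7.63, 8.79, 7.73 and 8.47 FPKM, each above every NIKflox liver. Such separation held for 0.605% of all genes tested in this direction, for 1.59% in the other and for 2.19% in either. The log2 fold change was 0.38 (SE 0.10), or 1.298-fold with an interval from 1.14-fold to 1.48-fold. Its unadjusted p was 0.003 and its edgeR adjusted p 0.26, so Acss3 was not called. DESeq2 gave an adjusted p of 0.042 at the same fold change. Over 22 alternatives the log2 fold change stayed between 0.27 and 0.43. Acss3 was also the steadiest of the 9 members that passed the level filter, with coefficients of variation of 9.998% in NIKflox and 6.72% in NIKhKO. Acss3 (ENSMUSG00000035948) spans 106933517 to 107123668 on chromosome 10, minus strand. Its annotated exons overlap those of Ppfia2 on the other strand, which read 0.024 FPKM (2436 bases, summed over distinct Ppfia2 exons in the same way).

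Acss1, the mitochondrial acetyl-CoA synthetase of tissues such as heart and muscle, was barely detected in these livers. NIKflox livers read 0.063, 0.193, 0.061, 0.216 and 0.158 FPKM, from estimated counts of 14 to 65. NIKhKO livers read 0.169, 0.120, 0.057, 0.060 and 0.126 FPKM, from 15 to 45 counts. The highest values were those of NIKflox 4 and 2, the livers with heart transcripts. NIKflox 5 and NIKhKO 1 came next, with heart marker sums of 0.437 and 1.20 FPKM. What part heart transcripts had in the Acss1 values was not tested. The log2 fold change was −0.32 (SE 0.44, edgeR adjusted p = 0.87), and 0.20 without NIKflox 2 and 4. With 1 library left out it ran from −0.53 (without NIKhKO 1) to −0.13 (without NIKflox 4). Acss1 (ENSMUSG00000027452) lies on chromosome 2 at 150618105 to 150668500, minus strand.

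Acetyl-CoA carboxylase comes in a pair of forms, and they are given here in turn. Acaca encodes the cytosolic form that serves fatty acid synthesis. NIKflox livers read 5.09, 6.83, 8.78, 7.16 and 8.01 FPKM, and NIKhKO livers 4.92, 5.77, 5.48, 6.24 and 4.87 FPKM. Every NIKhKO liver lay below the NIKflox median, 2 of them below the lowest NIKflox liver, NIKflox 1. Mean levels were 7.17 ± 1.39 and 5.46 ± 0.579 FPKM (SD, n = 5 each). The log2 fold change was −0.33 (SE 0.13), or 0.797-fold with an interval from 0.667-fold to 0.953-fold. The unadjusted p was 0.030 and the edgeR adjusted p 0.44. The sign held in all 22 alternatives, from −0.42 to −0.24, and the lowest adjusted p among them was 0.31. Acaca (ENSMUSG00000020532) lies on chromosome 11, plus strand, at 84129672 to 84401645 as the table gives it.

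Acacb encodes the form tied to the outer mitochondrial membrane, whose malonyl-CoA restrains fatty acid oxidation. NIKflox livers read 7.06, 5.47, 10.3, 10.1 and 9.18 FPKM, and NIKhKO livers 8.56, 6.96, 8.07, 7.62 and 6.38 FPKM. All NIKhKO livers lay inside the NIKflox range. The log2 fold change was −0.09 (SE 0.16, edgeR adjusted p = 0.90), with an interval from 0.756-fold to 1.16-fold. With 1 library left out the log2 fold change ran from −0.21, without NIKflox 2, to −0.0073, without NIKflox 3. Acacb (ENSMUSG00000042010) lies on chromosome 5 at 114146535 to 114250761, plus strand.

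Mid1ip1 encodes a small protein that helps acetyl-CoA carboxylase to polymerize and so activates it. It varied most of the 10 on the log2(FPKM + 1) scale, with a within-genotype SD of 0.56 against a median of 0.19 for all genes tested. NIKflox livers read 37.4, 26.3, 13.8, 42.9 and 38.9 FPKM, and NIKhKO livers 24.8, 28.5, 58.7, 31.9 and 30.2 FPKM. NIKflox 3, the liver with the most Acaca and Acacb, had the least Mid1ip1. NIKhKO 3 had the most, and without it the log2 fold change turned from 0.20 (SE 0.32, edgeR adjusted p = 0.89) to −0.095. Without NIKflox 3 it was 0.018, and without NIKflox 4, the highest value of any left-out library, 0.31. Mid1ip1 (ENSMUSG00000008035) lies on chromosome X at 10715013 to 10719690, plus strand.

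Mlycd, malonyl-CoA decarboxylase, turns malonyl-CoA back into acetyl-CoA. NIKflox livers read 23.4, 21.6, 25.5, 38.2 and 31.1 FPKM, and NIKhKO livers 30.5, 33.1, 18.9, 21.7 and 25.8 FPKM. High and low livers occurred in each genotype, and the log2 fold change was −0.043 (SE 0.16, edgeR adjusted p = 0.97). Mlycd (ENSMUSG00000074064) lies on chromosome 8 at 119394878 to 119411102, plus strand.

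Me1, the cytosolic malic enzyme, makes NADPH for fatty acid synthesis from malate that derives in part from the oxaloacetate Acly releases. NIKflox livers read 40.1, 69.2, 70.4, 50.05 and 60.5 FPKM, and NIKhKO livers 19.8, 40.9, 47.3, 53.3 and 40.1 FPKM. All NIKhKO livers lay below the NIKflox median of 60.5 FPKM, and NIKhKO 1 stood apart at the low end. Mean levels were 58.1 ± 12.9 and 40.3 ± 12.6 FPKM (SD, n = 5 each), and the log2 fold change was −0.46 (SE 0.25, unadjusted p = 0.091, edgeR adjusted p = 0.59). The interval ran from 0.522-fold to 1.02-fold. Without NIKhKO 1 the log2 fold change was −0.28. Me1 (ENSMUSG00000032418) lies on chromosome 9 at 86581371 to 86695953, minus strand.

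**Figure D2:**
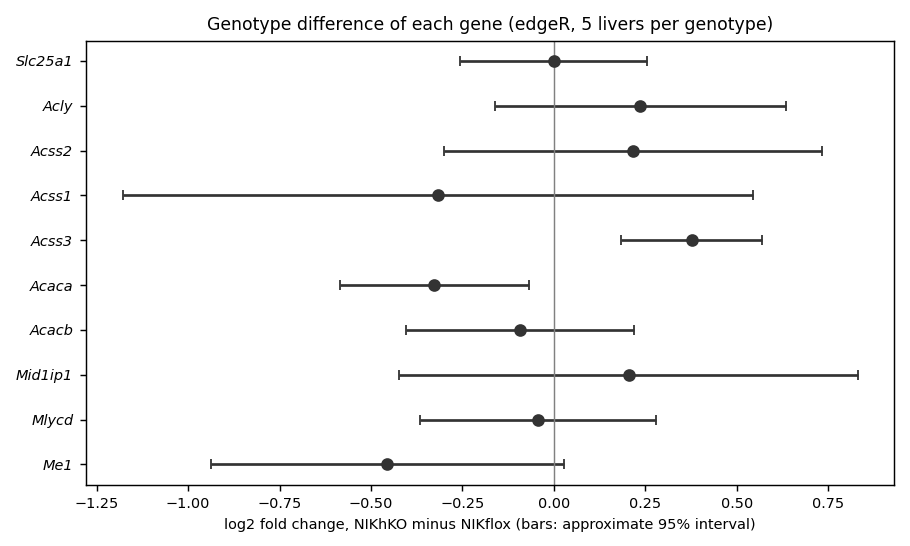
Log2 fold change of each gene, NIKhKO minus NIKflox, from edgeR with 5 livers per genotype (points) and its approximate 95% interval (bars). The intervals of Acss3 (above 0) and Acaca (below 0) leave out 0 before any adjustment for 12731 tests, and that of Acss1 is the widest.

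Ranked by mean FPKM over the 10 livers, a level per length, the order was Slc25a1 (78.4), Acly (50.4), Me1 (49.2), Mid1ip1 (33.3), Mlycd (27.0), Acss2 (10.7), Acacb (7.97), Acss3 (7.27), Acaca (6.31) and Acss1 (0.122). Slc25a1 exceeded Acly in 9 of 10 livers, NIKhKO 3 being the exception. Acly and Me1 did not differ beyond their spread, with Acly higher in 5 of 10 livers. Mid1ip1 and Mlycd, Acss2 and Acacb, Acacb and Acss3, and Acss3 and Acaca likewise differed in mean by less than the larger SD of each pair. Mlycd exceeded Acss2, and Acaca exceeded Acss1, in 10 of 10 livers.

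Ratios of FPKM within a liver set the RNA of these enzymes side by side, and the use of each route was not measured. Acly RNA exceeded Acss2 RNA 5.20 ± 1.64-fold in NIKflox and 4.84 ± 1.76-fold in NIKhKO (SD, n = 5 each), and Acss2 reads may in part come from Gss. The ratio of Acly to Slc25a1 was 0.598 ± 0.130 and 0.699 ± 0.183, and that of Acaca to Acacb was 0.880 ± 0.218 and 0.733 ± 0.107. Acacb to Mlycd, the RNA of 1 of the enzymes that make malonyl-CoA against that of the enzyme that removes it, was 0.304 ± 0.0604 and 0.303 ± 0.0862. No ratio passed a two-sided exact permutation test of its log2 value between genotypes, which has 252 arrangements and a smallest possible p of 0.0079. The lowest p was 0.22, for Acaca to Acacb (adjusted p = 0.83 over the 4 ratios).

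**Figure D3:**
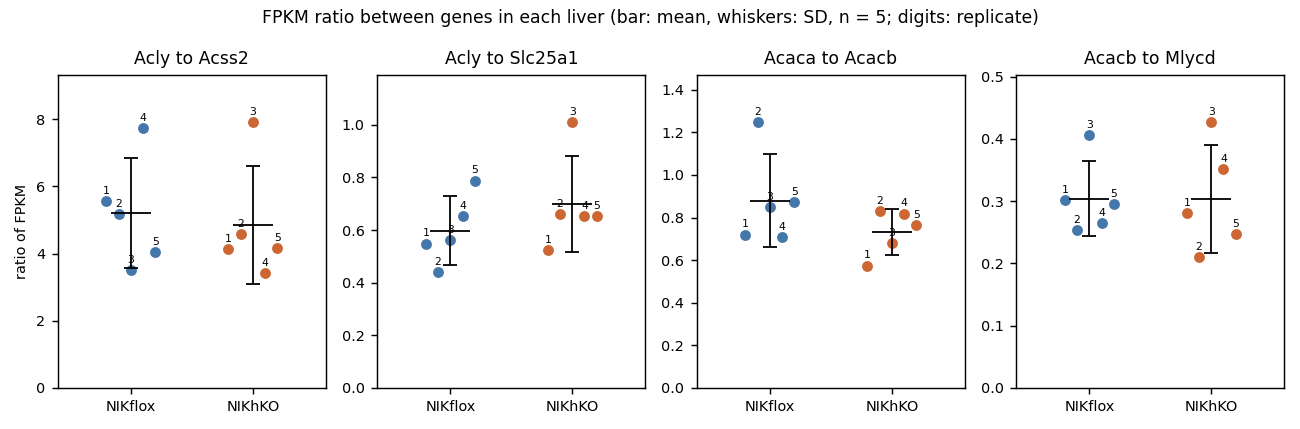
FPKM ratio of 4 gene pairs (1 panel each, vertical axis from 0) in the 5 NIKflox and 5 NIKhKO livers, with mean, SD and replicate number. The genotypes overlap in each panel, and NIKhKO 3 is the highest NIKhKO liver for Acly to Acss2 (7.91), Acly to Slc25a1 (1.01) and Acacb to Mlycd (0.426).

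No liver had all 10 genes raised or all 10 lowered together. NIKflox 3 was the highest or lowest liver for 6 of the 10, highest for Slc25a1, Acss2, Acaca, Acacb and Me1 and lowest for Mid1ip1. Of all genes tested it was highest for 10.5% and lowest for 5.09%, and so at an extreme for 15.6%. NIKhKO 3 was at an extreme for 5, highest for Acly, Acss3 and Mid1ip1 and lowest for Acss1 and Mlycd. Of all genes tested it was highest for 6.02% and lowest for 18.8%, and so at an extreme for 24.8%. Acly and Acaca thus peaked in different livers.

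**Figure D4:**
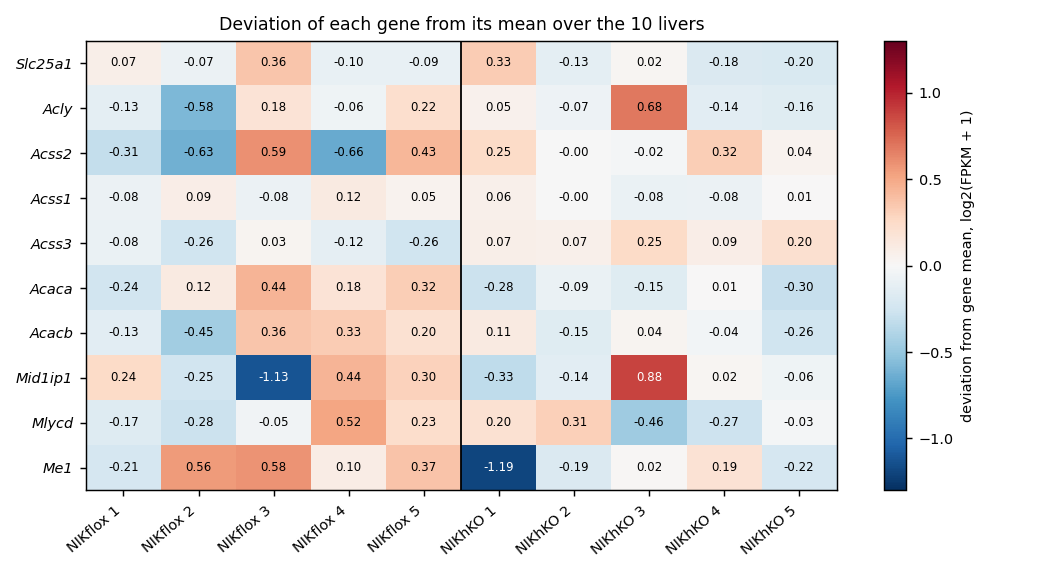
Deviation of each gene (rows) from its own mean over the 10 livers (columns), in log2(FPKM + 1), red above and blue below the mean, with NIKflox left and NIKhKO right of the line. NIKhKO 3 is high for Acly (0.68) and Mid1ip1 (0.88), NIKflox 3 is low for Mid1ip1 (−1.13), NIKhKO 1 is low for Me1 (−1.19), and no column has 1 colour throughout.

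Acly was compared with each of the other 9 genes across the 10 livers, on log2(FPKM + 1), with permutation tests of 100000 resamples. None of the 9 relations passed adjustment by either measure. Acacb came nearest, with Pearson's r = 0.60 (permutation p = 0.063, adjusted p = 0.51) and Spearman's rho = 0.77 (permutation p = 0.013, adjusted p = 0.12). Without NIKflox 2 and NIKhKO 3, the livers farthest from the Acly median, r was 0.74. Without NIKhKO 3 alone it was 0.84, with a permutation adjusted p of 0.026, and without NIKflox 2 alone it was 0.35. For Slc25a1, the carrier of the Acly substrate, r was 0.31 (permutation p = 0.39, adjusted p = 0.58) and rho 0.49 (permutation p = 0.15, adjusted p = 0.69), and r was 0.54 without the same livers. For Acaca, r was 0.043 (permutation p = 0.91, adjusted p = 0.91) and rho 0.30 (permutation p = 0.41, adjusted p = 0.71), and r was 0.72 without them.

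Among all 45 pairs of the 10 genes, Acaca and Me1 varied most alike, a pair singled out after its values were seen. Pearson's r was 0.77 (permutation p = 0.0049, adjusted p = 0.22 over 45 pairs) and Spearman's rho 0.92 (permutation p = 0.00055, adjusted p = 0.025). Pearson's r was 0.72 without NIKflox 3 and 5, the livers farthest from the Acaca median, and 0.64 with each genotype centred on its own mean. Spearman's rho was not computed in these settings, so its dependence on genotype or on single livers was not tested. With 5 livers in each genotype, r within a genotype was not computed.

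The gene most like Acly was not among the 10. Of 9380 genes with a mean of at least 1 FPKM ranked by Pearson's r over the 10 livers, Fasn stood first (r = 0.92, rho = 0.90). Fasn encodes fatty acid synthase, which builds palmitate from the acetyl-CoA and malonyl-CoA these enzymes supply. NIKflox livers read 62.1, 37.2, 85.8, 71.9 and 84.6 FPKM of Fasn, and NIKhKO livers 61.5, 60.3, 112, 61.2 and 43.1 FPKM. As for Acly, NIKflox 2 was lowest and NIKhKO 3 highest. Mlxipl, which encodes the glucose-sensing factor ChREBP, stood at place 5 (r = 0.87, rho = 0.76), and Dlat, the acetyltransferase subunit of pyruvate dehydrogenase, followed (r = 0.87, rho = 0.76).

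The other 5 of the leading 8 were Wipf3, Tbc1d24, Zfp385b, Unc93b1 and C77080, with r from 0.83 to 0.91. These ranks were chosen for their r, so no test is given. Without NIKflox 2 and NIKhKO 3, r was 0.81 for Fasn, 0.56 for Mlxipl and 0.57 for Dlat. The nearest member by this ranking was Acacb, at place 197, and Slc25a1 stood at 1354 and Acaca at 3632. None of the 8 passed the test of genotype (lowest edgeR adjusted p = 0.59, Dlat).

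**Figure D5:**
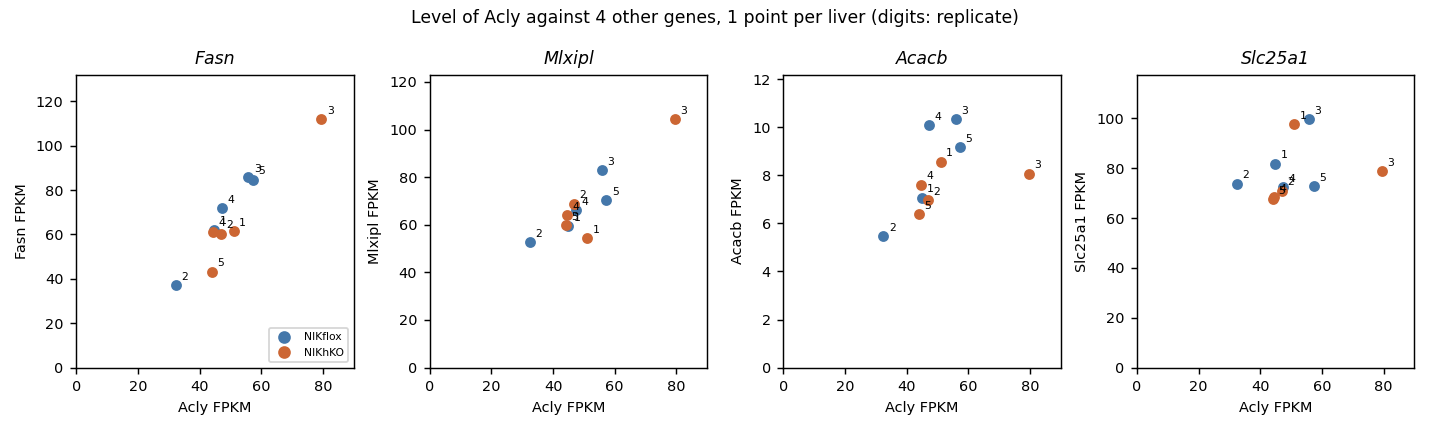
FPKM of Acly (horizontal axis) against FPKM of Fasn, Mlxipl, Acacb and Slc25a1 (vertical axes), 1 point per liver, coloured by genotype and numbered by replicate. Fasn and Mlxipl follow Acly from NIKflox 2 at the low end to NIKhKO 3 at the high end, whereas Acacb and Slc25a1 in NIKhKO 3 (8.07 and 78.8 FPKM) lie inside the range of the other livers.

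Around the 10 genes, 8 lists of neighbouring pathway genes held 96 names, of which 92 were tested. None of the 92 passed in edgeR's quasi-likelihood test (lowest adjusted p = 0.26), 12 had an unadjusted p below 0.05 (9.99% of all genes did), DESeq2 called 2 (1.66% of all genes) and limma 0. Of the 92, 49 had positive and 43 negative log2 fold changes, where 48.2% of all genes tested were positive. Of these 92, 1 (Slc16a7) had genotypes that did not overlap, against 2.19% of all genes.

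Of 15 lipogenic regulators 10 were positive, with a median log2 fold change of 0.078. Those with the smallest p were the nuclear receptor Pparg (3.83 ± 0.880 against 5.33 ± 1.42 FPKM, NIKflox first here and below), its coactivator family member Ppargc1b (0.437 ± 0.120 against 0.661 ± 0.212 FPKM) and Srebf1, which encodes SREBP-1 (41.0 ± 10.9 against 51.8 ± 8.88 FPKM, edgeR adjusted p = 0.50). Of 15 genes of fatty acid synthesis below malonyl-CoA 8 were positive (median 0.059). The desaturases Fads2 (239 ± 31.8 against 308 ± 57.7 FPKM) and Fads1 (128 ± 10.9 against 145 ± 24.2 FPKM) and the elongase Elovl5 led it by p.

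The 8 tested genes of NADPH supply beside Me1 had a median of −0.012, 4 in each direction. Mthfd1, a folate enzyme, read 43.4 ± 6.52 against 51.7 ± 5.08 FPKM (edgeR adjusted p = 0.35). Pgls of the pentose phosphate route read 9.34 ± 1.70 against 8.32 ± 0.749 FPKM. The cytosolic isocitrate dehydrogenase Idh1 differed by less than its spread, at 108 ± 5.97 against 109 ± 5.69 FPKM (log2 fold change 0.070, SE 0.083).

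On the citrate and pyruvate side 8 of 15 were positive (median 0.082). Pdk2, a kinase that restrains pyruvate dehydrogenase, read 31.5 ± 5.81 against 39.0 ± 3.002 FPKM (edgeR adjusted p = 0.33). The dicarboxylate carrier Slc25a10 read 49.7 ± 12.2 against 62.7 ± 12.3 FPKM, and the cytosolic malate dehydrogenase Mdh1, which links Acly to Me1 through malate, 136 ± 21.7 against 111 ± 10.01 FPKM.

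Genes of acetate and acetyl-CoA handling had the smallest p-values around the 10 genes. Of 14, 5 were positive (median −0.044). Aldh1b1, a mitochondrial aldehyde dehydrogenase, read 44.7 ± 11.3 against 67.7 ± 12.7 FPKM (log2 fold change 0.66, SE 0.18, edgeR adjusted p = 0.26). Crat, the carnitine acetyltransferase that moves acetyl groups between CoA and carnitine, read 13.0 ± 3.91 against 6.92 ± 2.04 FPKM (log2 fold change −0.85, SE 0.24, edgeR adjusted p = 0.27). DESeq2 called these genes, at adjusted p-values of 0.041 and 0.039. Slc16a7, a monocarboxylate transporter, read 9.22 to 10.996 FPKM in NIKflox and 11.1 to 13.7 FPKM in NIKhKO (log2 fold change 0.35, SE 0.10, edgeR adjusted p = 0.27).

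On the malonyl-CoA and carnitine side 4 of 7 were positive (median 0.034). Acsf3, a mitochondrial malonyl-CoA synthetase, read 8.26 ± 1.67 against 9.94 ± 2.12 FPKM, Cpt1a, the liver carnitine palmitoyltransferase, 31.8 ± 5.38 against 35.5 ± 5.46 FPKM, and Mcat 7.01 ± 2.17 against 7.68 ± 1.85 FPKM. The subunits of AMPK, the kinase that inhibits acetyl-CoA carboxylase, and its upstream kinase had 3 of 8 positive (median −0.0060), led by Prkag2 (4.10 ± 0.269 against 4.36 ± 0.140 FPKM), Prkab2 and Stk11, with 0 at an unadjusted p below 0.05. Of 10 genes of the AKT branch named in the study title 7 were positive (median 0.0089). Insr, the insulin receptor, read 4.71 ± 2.42 against 1.36 ± 1.52 FPKM (edgeR adjusted p = 0.40), Akt1 15.7 ± 1.98 against 13.5 ± 1.176 FPKM and Irs1 3.74 ± 0.512 against 4.06 ± 0.806 FPKM. RNA alone was measured, so phosphorylation of ACLY or of acetyl-CoA carboxylase was not assessed.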

How the data were processed

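Liver poly(A) RNA of 5 NIKflox and 5 NIKhKO mice was sequenced, and 1 table of 55401 genes was used. Tools listed in the submitters' processing notes, without role or order, are HISAT2 2.0.4, cutadapt 1.9, edgeR and StringTie 1.3.4d, and the build listed is human, hg38. The identifiers are mouse, and 93.8% of genes had the same start and end in GENCODE M21 (GRCm38), 8 of the 10 genes described among them. Acaca and Acss2 end elsewhere there. The FPKM values were made by the authors, per the file headers, and genes with a count of 0 are listed at 1e-04. The estimated counts were deposited as whole numbers and are not scaled. They pile up at 4 (on average 907 genes at 4, 330.5 at 3 and 175.8 at 5). A count therefore need not be 1 read pair and totals are no direct measure of depth, and precision was taken from the spread between livers.

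Genes with a mean of at least 0.5 FPKM, and all 10 members, were tested with edgeR 4.0.16 in R 4.3.3 (quasi-likelihood, TMM, two-sided). SE is the log2 fold change over the square root of F. Alternatives were limma 3.58.1 on log2(FPKM + 1) and log2(FPKM + 0.1), DESeq2 1.42.0, other scalings and filters, a replicate block and left-out libraries. Correlations and ratios used Python 3.11.15. The edgeR fit, and not the other procedures, was first tested on simulated data. The labels give no pairing of livers across genotypes. By replicate number none was seen (0 of 5 same-numbered pairs had a correlation of deviations over 0.1), which cannot show that none existed. The members and lists were chosen with earlier results of these data known. All members were named, from each list the called genes or else the 3 with the smallest p, and the 8 genes most like Acly with a regular symbol. Promoter windows came from RefSeq (GRCm38.p6).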

Additional observations from a re-analysis of the deposited data

Results flagged for a closer look

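Of 28 groups of 5 livers examined (10 genes and 4 ratios in each genotype), 4 held a liver whose gap to its nearest neighbour exceeded 0.71 of the group's range. In independent groups of normally distributed values, chance alone flags about 5%. The groups here share genes and livers and were not tested for normality, so their chance rate is not known. All 4 flagged livers were NIKhKO 3, and 3 of the 4 share the Acly value. Acly in NIKhKO 3 was 79.6 FPKM, next to 51.0 FPKM in the nearest NIKhKO liver. Mid1ip1 was 58.7 FPKM, next to 31.9 FPKM. The ratio of Acly to Acss2 was 7.91, next to 4.59, and that of Acly to Slc25a1 was 1.01, next to 0.661. Among the 10 livers NIKhKO 3 had the lowest cholangiocyte marker sum (15.8 FPKM) and the lowest skeletal muscle sum (0.108 FPKM). Among the NIKhKO livers it had the lowest hepatocyte sum (41600 FPKM) and heart sum (0.611 FPKM) and the highest endothelial (18.8 FPKM) and macrophage (68.0 FPKM) sums. Its adipocyte, stellate and B cell sums (2.97, 41.6 and 5.33 FPKM) lay inside the range of the other NIKhKO livers, and the part of these transcripts in its values was not tested. Its TMM factor, 0.924, was the lowest of the 10.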

How the results depend on the processing

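Against 2 genes called higher and 1 lower, limma called 0 and 0 with either pseudocount, DESeq2 126 and 81, robust shrinkage 4 and 2, and edgeR without NIKflox 2 and 4 called 1 and 0, or 0 and 0 without NIKflox 2 and NIKhKO 5. By summed FPKM NIKflox 4, not NIKhKO 5, ranked next to NIKflox 2 in adipocyte markers. The replicate block gave 1 higher and 1 lower and changed no call of a member, and no liver correlated best with its own number. For ratios the block was a sign-flip test of 5 same-numbered pairs. Such a test cannot reach a p below 0.05, so it could not have called a ratio. Leaving out 1 library gave 0 to 16 higher and 0 to 8 lower (16 and 8 without NIKhKO 4). The number of members called was 0 in every alternative other than DESeq2, which called 1 (Acss3). The cause of these shifts was not tested.

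Of the member fold changes under the alternatives, 201 kept their sign and side of the threshold, 18 turned and 1 passed. Slc25a1 was 0.0062 with DESeq2 and with RLE factors, 0.013 with filterByExpr, 0.0098 with no filter and 0.014 without NIKflox 2 and NIKhKO 5, and −0.093 to 0.089 with 1 library left out. Without NIKflox 2 and 4, Acss2 was −0.12, Acss1 0.20 and Mlycd 0.0052. With 1 library left out, Acss2 ran from 0.077 to 0.44, Acss1 from −0.53 to −0.13, Acacb from −0.21 to −0.0073, Mid1ip1 from −0.095 to 0.31 and Mlycd from −0.12 to 0.077. The log2 ratio difference ran from −0.30 to 0.044 for Acly to Acss2 and from −0.16 to 0.092 for Acacb to Mlycd. Pearson's r with Acly ran from −0.093 to 0.30 for Acaca, 0.35 to 0.84 for Acacb, −0.14 to 0.75 for Mid1ip1, −0.40 to 0.51 for Mlycd and −0.20 to 0.20 for Me1, and for Me1 it was 0.049 with each genotype centred. Acss1 rests on 14 to 65 estimated counts per library, and at counts divided by 4 its log2 fold change was −0.35.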
